A study of Mus musculus with 7 samples.

Results

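Transcripts of 10 genes that build and turn over the actin network of the oocyte were followed in 7 single mouse oocytes at the MII stage, the mature egg that waits in its second meiosis for a sperm. The genes were taken by symbol from a table of 37620 Ensembl genes: the nucleators Fmn2, Spire1 and Spire2, the vesicle motor Myo5b, the Arp2/3 complex subunits Actr2, Actr3 and Arpc2, its activator Wasf1, the filament-severing protein gene Cfl1 and the actin gene Actb. All 10 were found, and 9 were above the expression filter, which asks for at least 1 FPKM (fragments per kilobase of gene, scaled to the reads of the library) in at least 3 libraries. Spire2 was not.

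Of the 7 oocytes, 3 had both Hira alleles floxed and no Cre (WT1, WT2 and WT4), and 4 had the same floxed alleles with Zp3-Cre (KO1 to KO4). Zp3 drives Cre in growing oocytes, and Hira encodes a chaperone that places the histone variant H3.3 on DNA. Each library is 1 whole cell, and the labels name no animal, strain, age or day. A genotype therefore counts as 1 sample here, no test is reported, and "higher" and "lower" describe these libraries only. Errors are the SD between single oocytes, n = 3 for WT and n = 4 for KO.

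A mouse oocyte has no centrosomes and moves its spindle to the cortex through a network of actin filaments in the cytoplasm. The formin FMN2 and the SPIRE proteins nucleate these filaments together on vesicles that carry RAB11A and are pulled by myosin Vb. Once the spindle is at the cortex, branched filaments made by the Arp2/3 complex keep it there during MII arrest. Cofilin severs filaments and returns actin monomers to the pool. The mature oocyte no longer transcribes its genome, so the levels below are those of stored maternal transcripts.

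The libraries matched their labels as far as the targeted gene shows. Hira was at 0.291 to 0.347 FPKM in the WT oocytes and at 0.024 to 0.0997 FPKM in the KO oocytes, without overlap. It was below 1 FPKM in every library and rested on 35 to 55 reads in WT and 5 to 17 in KO oocytes. Reads in genes, recovered from the steps between FPKM values, numbered 15404168 to 26047498 per library. All 12 oocyte markers passed the filter. As deposited, 5 of them (Gdf9, Bmp15, Zp2, Oosp1 and Dppa3) fell by more than 1.5-fold in KO oocytes, beside 7.92% of all genes. None rose by that much. Median-ratio scaling left the lower count at 5, but quantile normalization left only 1 (both are given below). Of the 12 differences, 8 were negative and 4 positive. Their median was -0.26 as deposited and -0.19 with quantile normalization. The summed FPKM of the 12, as deposited, was 15670 to 16843 in WT and 9441 to 11868 in KO oocytes, without overlap. Of 22 cumulus and granulosa cell markers, 5 passed the filter, and Fshr and Nr5a2 among these rose by more than 1.5-fold. Another 8 were at 0 in every library, among them Amh, Foxl2, Lhcgr and Gja1. The summed level of that marker list was 206 to 274 FPKM in WT and 243 to 306 FPKM in KO oocytes, most of it Serpine2. Of 6 blood and immune markers, none was above the filter, and their sum was 1.99 FPKM at most.

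One of the 10 genes, Actb, was over 1.5-fold higher in KO oocytes, and none was over 1.5-fold lower. Folds and differences compare the mean of log2(FPKM + 1) in KO oocytes with that in WT oocytes, so a positive difference is higher in KO, and they understate the change of low genes. The 8033 genes that passed the filter gave shares of 22.6% higher and 7.92% lower by the same limit. Against those shares, 1 and 0 of 9 are no surplus. The counts of each list below are to be set beside the same shares. Among the 2421 of them with a mean of 10 to 100 FPKM, the shares were 18.0% and 8.51%. The median difference of the 9 genes was 0.17, beside 0.18 for all genes above the filter. Dividing each library by its median ratio to the gene-wise geometric mean brought the median of all genes to 0.02 and that of the 9 genes to -0.04. On that scale 15.6% of all genes were higher and 13.0% lower by the same limit, and with quantile normalization 14.4% and 12.7%. With quantile normalization the median of the 9 genes was 0.12, beside 0.0021 for all genes. Without WT4 it was 0.055, beside 0.18 for all genes.

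Per length, the 10 transcripts fell into 5 levels. Actr2 was the most abundant, at 265 ± 32.2 FPKM over the 7 oocytes, rank 133 of the 8033 genes, and Cfl1 followed at 109 ± 33.6 FPKM. Fmn2 (49.0 ± 7.16 FPKM), Actr3 (44.1 ± 12.8), Actb (44.0 ± 12.9), Arpc2 (37.3 ± 4.05) and Spire1 (36.5 ± 6.77) were next, and each of these overlapped its neighbour in the order. Wasf1 (8.46 ± 1.48 FPKM) and Myo5b (7.48 ± 1.43) overlapped each other and lay below every value of the group above. Spire2 was last, at 0 in 5 of 7 libraries. Within each oocyte Actr2 was above Cfl1, Cfl1 above Fmn2, and Spire1 above Wasf1 in all 7. The order depends on the gene lengths behind the FPKM, which can be worked out from its steps and were 0.404 times the reference exon length for Cfl1 and 2.24 times for Actb. Rescaled to the reference length, a choice added after seeing the data, Actr2 was still first at 287, followed by Actb (98.3), Fmn2 (65.0), Arpc2 (46.8), Cfl1 (44.2), Spire1 (43.8) and Actr3 (23.9). Ratios of FPKM between oocytes of the same gene do not depend on its length. The filter and the differences of log2(FPKM + 1) do, most for low genes, and were not recomputed on reference lengths.

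**Figure D1:**
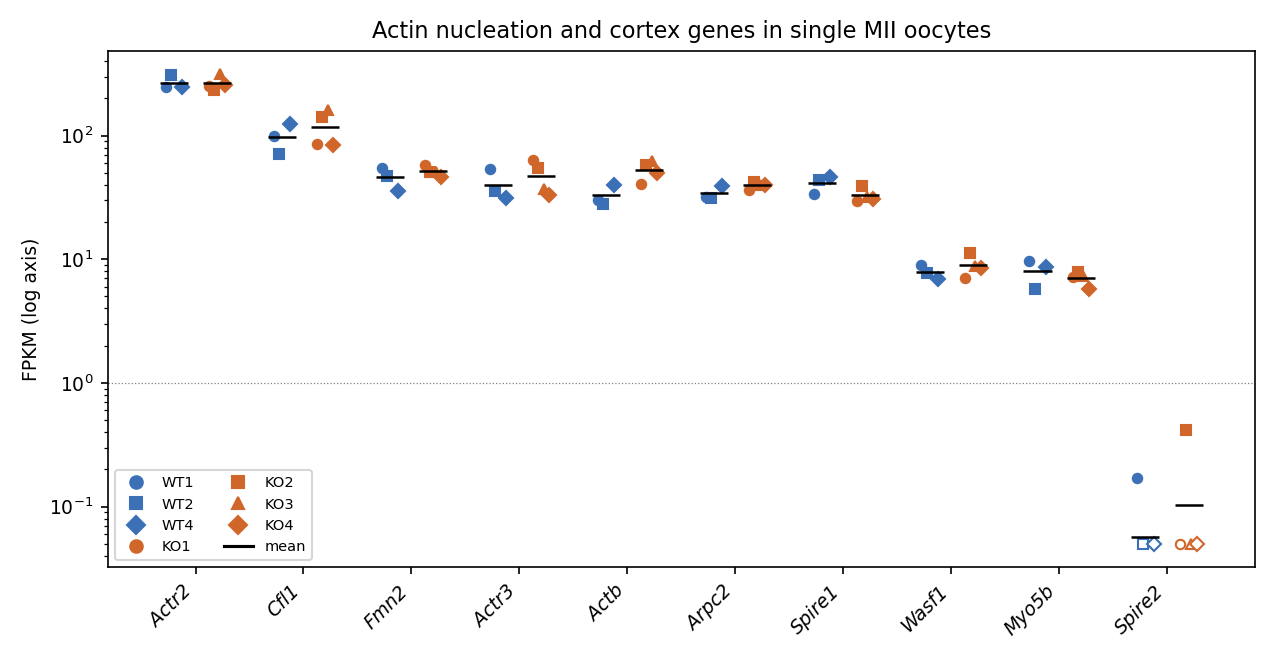
FPKM of the 10 genes (log axis) in each of 3 WT (blue) and 4 KO (orange) single oocytes, ordered by mean level, with black bars for the mean of each genotype. Open symbols at the bottom are oocytes listed at 0 for Spire2, and the dotted line is 1 FPKM. The genotypes overlap for every gene but Actb, whose lowest KO value, 40.7 FPKM, is close to its highest WT value, 40.2 FPKM.

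Fmn2, the formin required for long-range spindle movement, was at 54.9, 47.4 and 35.6 FPKM in WT1, WT2 and WT4. In KO1 to KO4 it was at 57.6, 51.2, 50.5 and 45.9 FPKM. WT4 alone was low, and the KO values lay within the WT range except KO1, just above it. The means were 46.0 ± 9.76 and 51.3 ± 4.79 FPKM, a log2 difference of 0.17. It was 0.0023 without WT4 and -0.04 with median-ratio scaling. These values rest on 6840 to 16673 reads per oocyte.

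Spire1 encodes the protein that nucleates filaments with FMN2 through its actin-binding WH2 repeats. It was at 33.7, 44.0 and 46.6 FPKM in the WT oocytes and at 29.5, 38.8, 32.02 and 30.7 FPKM in the KO oocytes. KO2 lay inside the WT range, and the other KO oocytes lay below all WT values. The means were 41.4 ± 6.85 and 32.8 ± 4.14 FPKM, a difference of -0.32, and with median-ratio scaling of -0.53. It kept its sign in all 13 alternatives, between -0.53 and -0.23, and passed 1.5-fold in none of them. The alternatives that change only the filter cannot move the difference of any gene. Set per oocyte, Fmn2 FPKM was 1.63, 1.08 and 0.763 times Spire1 in WT and 1.95, 1.32, 1.58 and 1.495 times Spire1 in KO oocytes. The ratio averaged 1.16 ± 0.439 and 1.59 ± 0.266, and WT1 lay above 3 of the 4 KO oocytes.

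Spire2, the second Spire gene, was barely detected. WT1 held 8 reads (exact 95% Poisson interval 3.45 to 15.8), or 0.169 FPKM, and KO2 held 23 (14.6 to 34.5), or 0.415 FPKM. The other 5 oocytes held none, for which the same interval reaches 3.69 reads, or 0.051 to 0.087 FPKM. Reads from amplified cDNA are not independent molecules, so these intervals cover counting error only. In KO2, the oocyte with most Spire2, the Spire1 level was 93.5 times as high per length.

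Myo5b encodes the motor that moves RAB11A vesicles along filaments. It was at 9.65, 5.78 and 8.70 FPKM in WT oocytes and at 7.20, 7.88, 7.37 and 5.78 FPKM in KO oocytes, so all KO values fell within the WT range. The means were 8.05 ± 2.02 and 7.06 ± 0.899 FPKM and the difference was -0.15. Rab11a, which marks these vesicles, was at 63.3, 58.0 and 49.4 FPKM in WT and at 49.3, 41.3, 37.4 and 43.1 FPKM in KO oocytes. Every KO oocyte lay below every WT oocyte, with KO1 just under WT4. Of all genes above the filter, 8.94% had their genotypes apart in that direction. Its difference was -0.40, and -0.61 with median-ratio scaling, which is over 1.5-fold. Myo5a, a related motor, went from 2.88 ± 0.491 to 3.79 ± 1.04 FPKM with overlap.

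Of 12 genes in the vesicle motor list, 4 were above the filter and none was over 1.5-fold apart, and their median difference was -0.21. The list of Spire and other WH2 nucleators had 3 of 7 above the filter, none over 1.5-fold apart, and a median of -0.24. In it, Cobll1 was at 19.6 ± 6.79 and 18.6 ± 2.95 FPKM, and Cobl, the nucleator cordon-bleu, at 1.56 ± 1.39 and 1.02 ± 0.468 FPKM.

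Fmn2 was the most abundant of 15 formin genes on average, with 28.4% to 36.8% of their summed FPKM. Fhod3, a formin known from heart muscle, was next at 44.8 ± 7.39 FPKM in WT and 37.4 ± 4.48 in KO oocytes, and it was above Fmn2 in WT4. Per oocyte, Fmn2 was 0.873 to 1.17 times Fhod3 in WT and 1.19 to 1.57 times in KO oocytes. The ranges did not overlap, but WT2 (1.17) and KO2 (1.19) were almost equal. Of 8 formins that passed the filter, 3 exceeded 1.5-fold in the higher direction and none in the lower, and the median difference was 0.21. Of all genes above the filter, 22.6% and 7.92% did so. Daam1, a formin downstream of Wnt signalling, was at 16.4, 14.6 and 18.6 FPKM in WT and 23.4, 26.0, 27.1 and 29.5 in KO oocytes. Diaph1, another formin, was at 2.77 ± 0.697 and 4.99 ± 0.676 FPKM, and Fmnl2 at 1.05 ± 0.451 and 2.89 ± 0.798 FPKM. All 3 were without overlap between genotypes, as were 18.9% of all genes in that direction. Without WT2, Diaph1 (0.56) and Daam1 (0.57) fell below 1.5-fold. Diaph3, another diaphanous formin, lay lower in every KO oocyte than in any WT oocyte, at 23.6 ± 1.78 and 21.6 ± 1.12 FPKM, a difference of -0.12. With median-ratio scaling only 1 of the 8 formins was over 1.5-fold higher.

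Subunits of the Arp2/3 complex differed far more among themselves than between genotypes. The complex holds one copy of each subunit, and ACTR2 and ACTR3 are the actin-like pair that starts the new filament. Actr2 was at 246, 309 and 246 FPKM in WT and at 253, 233, 313 and 257 FPKM in KO oocytes. The genotypes overlapped throughout, with means of 267 ± 36.3 and 264 ± 34.6 FPKM and a difference of -0.02. Its sign turned in 4 of 13 alternatives. Actr2 alone made up 61.4% to 75.5% of the summed FPKM of the 10 subunit genes.

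Actr3 was at 53.4, 35.7 and 31.5 FPKM in WT and at 63.6, 54.6, 36.8 and 33.2 FPKM in KO oocytes. WT1, KO1 and KO2 were high and the other 4 low, so the split ran across the genotypes. The Actr2 level was 3.97 to 4.61 times Actr3 in those 3 oocytes and 7.73 to 8.65 times in the others. The means of Actr3 were 40.2 ± 11.6 and 47.0 ± 14.5 FPKM, a difference of 0.21 that was 0.43 without WT1 and 0.00 with median-ratio scaling. Of its 50-base words, 26.3% also occur in 2 other annotated genes, mainly Gm8822, which was at 0.086 FPKM at most.

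Arpc2, a core subunit that holds the complex to the mother filament, was among the steadiest of the 10. It was at 32.1, 31.6 and 39.2 FPKM in WT and at 36.5, 41.7, 39.8 and 40.2 FPKM in KO oocytes. KO1 lay below WT4, and the other 3 KO oocytes lay above all WT values. The means were 34.3 ± 4.27 and 39.6 ± 2.21 FPKM, and the difference of 0.20 became -0.0022 with median-ratio scaling.

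Among the 8 Arp2/3 subunit genes that passed the filter, 2 exceeded 1.5-fold upward (Arpc5l and Arpc1a) and 1 downward (Arpc3). Their median was 0.21, and the shares over all genes were 22.6% upward and 7.92% downward. Arpc5l, an alternative form of the ARPC5 subunit, was at 19.8, 19.9 and 16.1 FPKM in WT and 39.8, 32.8, 26.6 and 38.3 in KO oocytes. The genotypes did not overlap, and its difference of 0.84 stayed over 1.5-fold in all 13 alternatives. Arpc1a was at 0.819 ± 0.574 and 2.51 ± 1.86 FPKM, and the genotypes overlapped. Leaving out KO3 brought it from 0.84 to 0.53. Arpc3 was lower, at 8.51 ± 0.498 FPKM in WT and 5.16 ± 1.94 in KO oocytes, without overlap, and its difference of -0.68 was -0.52 without KO4. Arpc4, for which no second gene is known in the mouse, was at 0.421 to 1.16 FPKM, so that Actr2 was 217 to 600 times as abundant per length. On reference lengths the means of Actr2 and Arpc4 were 287 and 1.96.

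**Figure D2:**
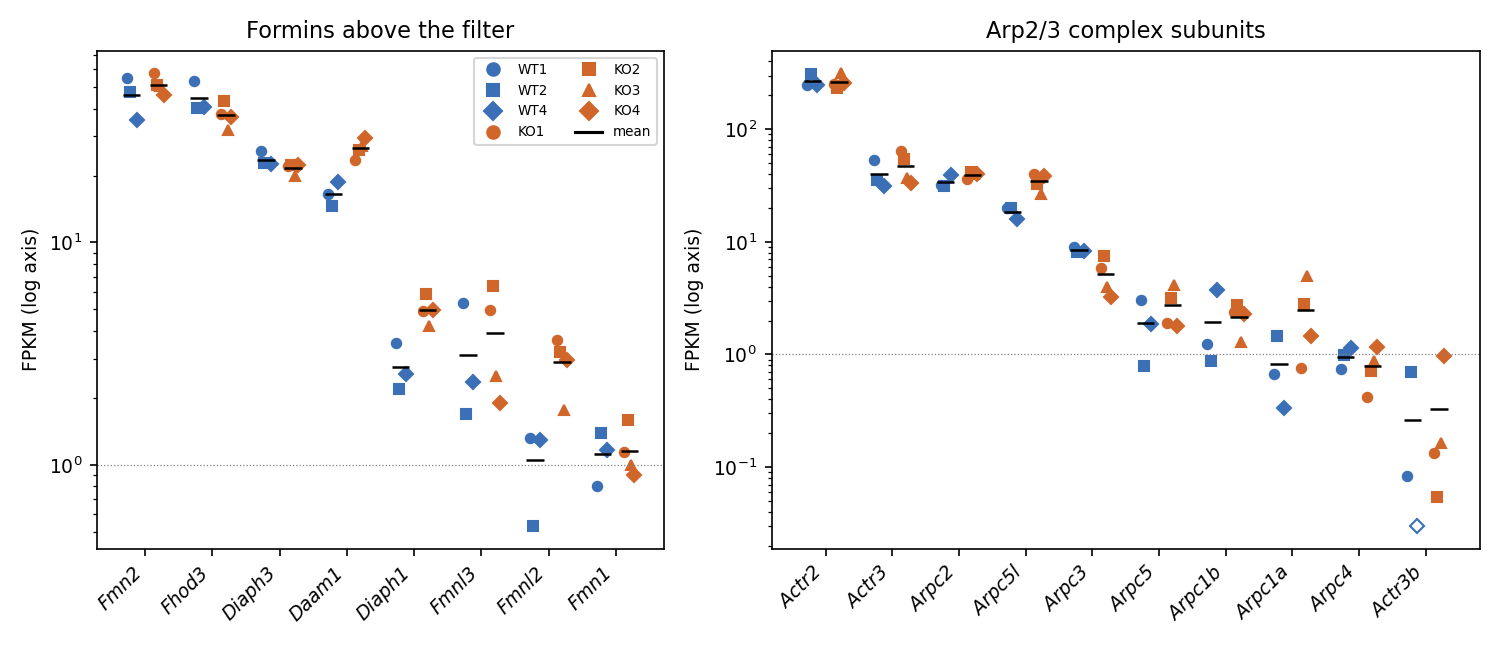
FPKM (log axis) of the 8 formin genes above the filter (left) and the 10 Arp2/3 subunit genes (right) in each oocyte, WT in blue and KO in orange, with bars for the mean of each genotype and a dotted line at 1 FPKM. Fmn2 and Fhod3 lead the formins, Actr2 lies far above the other subunits, and the open symbol is an oocyte listed at 0.

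Wasf1 encodes WAVE1, the Arp2/3 activator of the WAVE complex. It was at 9.004, 7.72 and 6.92 FPKM in WT and at 7.04, 11.3, 8.81 and 8.48 FPKM in KO oocytes. KO2 was the only KO oocyte above all WT values, and no KO oocyte was below them. The means of 7.88 ± 1.05 and 8.90 ± 1.75 FPKM differed by 0.15, and the sign turned with median-ratio scaling (-0.04) and with quantile normalization (-0.05). Of 22 genes that activate Arp2/3, 11 passed the filter, 1 exceeded 1.5-fold upward and none downward, and the median was 0.31. With median-ratio scaling the median was 0.10 and no gene was over 1.5-fold higher. Abi1, an adaptor in the WAVE complex, was at 3.88 ± 0.788 and 6.47 ± 1.72 FPKM, and Cyfip2, another subunit, at 2.66 ± 0.549 and 4.28 ± 0.394 FPKM, both without overlap. The Abi1 difference of 0.60 fell below 1.5-fold without WT2 (0.51), WT4 (0.56), KO1 (0.46) or KO4 (0.58). Wasf1 took 3.19% to 5.02% of the summed FPKM of this list, in which Brk1, the smallest WAVE subunit (102 ± 12.5 and 84.6 ± 14.6 FPKM), and Wasl, which encodes N-WASP (36.6 ± 16.6 and 43.3 ± 7.53 FPKM), led. Of 9 Arp2/3 inhibitors, 3 were above the filter and none was over 1.5-fold apart. Gmfb, which debranches filaments, was at 10.8 ± 1.89 and 12.4 ± 2.04 FPKM, and the coronin gene Coro1c at 0.881 ± 0.173 and 1.395 ± 0.252 FPKM.

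Cfl1, which encodes non-muscle cofilin, varied most among the 9 within KO oocytes. It was at 98.4, 71.6 and 124 FPKM in WT and at 85.3, 142, 161 and 83.5 FPKM in KO oocytes. KO2 and KO3 lay above every WT oocyte, while KO1 and KO4 lay between WT2 and WT1. The SD was 26.8% of the mean in WT and 33.5% in KO oocytes. The means were 98.0 ± 26.3 and 118 ± 39.6 FPKM, and the difference of 0.24 was 0.07 without KO3, 0.03 without WT2 and 0.03 with median-ratio scaling. Of its 50-base words, 18.3% occur in 5 other genes, among them the copy Gm6180 at up to 17.7 FPKM, so part of its reads cannot be assigned with certainty.

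Of 17 genes for filament disassembly and cofilin control, 11 passed the filter. Of these, 2 exceeded 1.5-fold upward and none downward, beside 22.6% and 7.92% of all genes, and the median was 0.24. With median-ratio scaling none was higher and 1 was lower. Dstn encodes destrin, a cofilin relative. It was at 3.69 ± 0.320 and 6.79 ± 1.00 FPKM. Limk2, a kinase that inactivates cofilin, was at 1.83 ± 0.484 and 3.44 ± 0.554 FPKM. Neither overlapped between genotypes, but Limk2 fell below 1.5-fold without WT2 (0.54) or KO3 (0.57). Per deposited length, Cfl1 was 11.7 to 30.6 times as abundant as Dstn, and on reference lengths their means were 44.2 and 5.46.

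Actb, the beta-actin gene, was at 30.4, 27.8 and 40.2 FPKM in WT1, WT2 and WT4. In KO1 to KO4 it was at 40.7, 57.4, 61.9 and 49.4 FPKM. WT4 and KO1 were almost equal, and the other 3 KO oocytes lay above all WT values. The means of 32.8 ± 6.53 and 52.3 ± 9.36 FPKM gave a ratio of 1.597 and a log2 difference of 0.66. The difference stayed positive in all 13 alternatives, between 0.45 and 0.81, but fell below 1.5-fold with median-ratio scaling (0.45), without WT2 (0.55) and without KO3 (0.57). After either rescaling the genotypes overlapped. The values rest on 3704 to 11596 reads. As deposited, the cumulus marker sums given above also reached higher in KO oocytes, and the oocyte marker sums were lower there. The part of these sums in the Actb difference was not tested.

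Actb supplied 95.8% to 98.2% of the summed FPKM of 6 conventional actin genes, and on deposited lengths it alone was above the filter. On reference lengths the means of Actb and Actg1 were 98.3 and 2.35. Actg1, the gamma-actin gene, was at 0.712, 0.604 and 0.697 FPKM in WT and at 0.822, 1.49, 1.51 and 0.845 FPKM in KO oocytes, again without overlap. Its reads numbered 83 to 310 per oocyte, and Actb was 38.4 to 58.4 times as abundant. The muscle actin genes Acta1, Acta2 and Actc1 were at 0 in every library, and Actg2, another muscle actin gene, averaged 0.206 FPKM. The Actb and Actg1 messages are alike, so the coding sequences are set side by side to show how well reads of the only differing gene can be told from those of its closest expressed relative. Over 1125 coding bases without the stop codon, taken from GENCODE M21 transcripts (GRCm38), they differed at 128, an identity of 88.6%. The first 60 coding bases, 5′ to 3′, hold 9 differences, shown as capitals:
Actb: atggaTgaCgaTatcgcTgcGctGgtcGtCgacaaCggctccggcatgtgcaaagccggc
Actg1: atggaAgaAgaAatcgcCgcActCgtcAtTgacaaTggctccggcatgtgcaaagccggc
The longest stretch without a difference was 62 bases. It holds this run at coding bases 889 to 948, which is the same in both and has no capitals:
Actb: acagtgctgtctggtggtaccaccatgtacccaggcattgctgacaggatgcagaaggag
Actg1: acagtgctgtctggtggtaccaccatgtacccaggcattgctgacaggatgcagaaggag
Of 1076 words of 50 bases in the coding sequence, 30 were identical in both, or 2.79%. Over all its annotated transcripts, 9.12% of the 50-base words of Actb occur in 18 other genes. For Actg1 the share was 37.4%, in 23 other genes. More of the Actg1 reads may therefore be ambiguous, and its level and the ratio and share above carry that limit. The read length is not given in the sources used here, so the share of ambiguous reads was not computed.

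**Figure D3:**
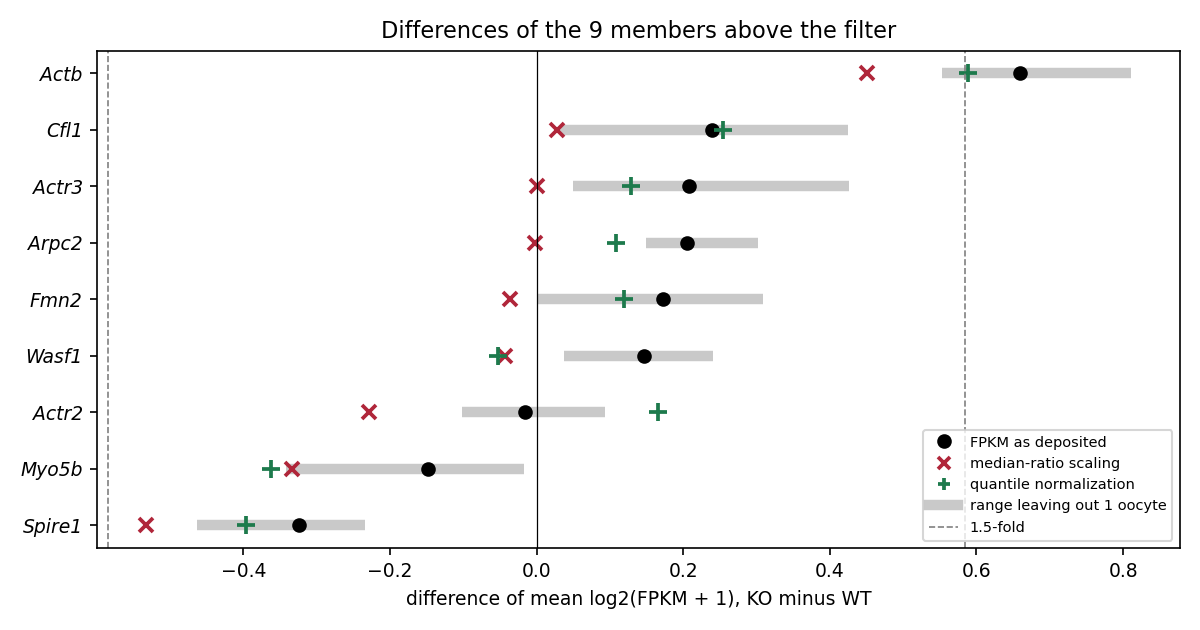
KO minus WT difference (mean log2 of FPKM + 1) for the 9 genes above the filter: black dots for FPKM as deposited, red crosses for median-ratio scaling, green plus signs for quantile normalization and grey bars for the range when 1 oocyte is left out. Dashed lines mark 1.5-fold. Actb alone passes a dashed line as deposited (0.66), and Spire1 is lowest (-0.32).

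Genes whose profile over the 7 oocytes lay closest were sought among all 8033, as the root mean square distance of centred log2(FPKM + 1). For Fmn2 these were Gemin8 (0.05), Elavl2 (0.06) and Rasa2 (0.06). For Actb they were Egfr (0.06), which encodes a growth factor receptor, Tfip11 (0.09) and Rasa4 (0.10). Gemin8 (means of 1.54 and 1.87 FPKM in WT and KO), Egfr (2.88 and 5.42) and Tfip11 (0.943 and 1.77) were low. At such levels the distance depends on the pseudocount. The distances describe 7 cells and share their depth and scaling.

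Of 150 other genes in the 11 lists, 83 were above the filter, 14 exceeded 1.5-fold upward and 4 downward, and the median was 0.23. Neither share exceeded that of all genes above the filter, 22.6% and 7.92%. Including the 10, the count over 1.5-fold was 15 higher and 4 lower of 92, with median-ratio scaling it was 6 and 8, and with quantile normalization 7 and 6. Each of these lay below the share of all genes on the same scale, given above. Among 16 genes of monomer binding and capping, 9 were above the filter, and 1 was higher and 1 lower. Capza1, a subunit of the barbed-end capping protein, was at 16.9, 35.9 and 38.8 FPKM in WT and 13.3, 19.7, 14.1 and 16.4 in KO oocytes, where WT1 lay among the KO values. Some 64.5% of its 50-base words are shared with other genes. Tmod4, a pointed-end capping protein of muscle, was at 0.183 ± 0.317 and 1.85 ± 1.39 FPKM with overlap. It passed the filter through KO2, KO3 and KO4 alone, so that it had to be higher there.

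Of 25 genes of cortex linkers and myosin II, 15 were above the filter, 1 was higher and 2 lower. With median-ratio scaling 0 were higher and 3 lower, and with quantile normalization 0 and 2. Rdx, which encodes radixin and ties filaments to the membrane, was the most abundant pathway gene. It was at 1032, 1124 and 900.2 FPKM in WT and at 606, 621, 579 and 615 FPKM in KO oocytes. All KO values lay below all WT values, the difference was -0.74, and with quantile normalization it was -0.56. Myl12b, a myosin II light chain, was at 13.7 ± 5.04 and 22.8 ± 6.33 FPKM with overlap, and was below 1.5-fold without WT2 (0.52) or KO4 (0.56). The same held with median-ratio scaling (0.51), quantile normalization (0.54) and a pseudocount of 5 (0.57). Myh9, a myosin II heavy chain, was at 2.69 ± 0.105 and 1.42 ± 0.289 FPKM without overlap, and fell below 1.5-fold without KO3 (-0.54).

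**Figure D4:**
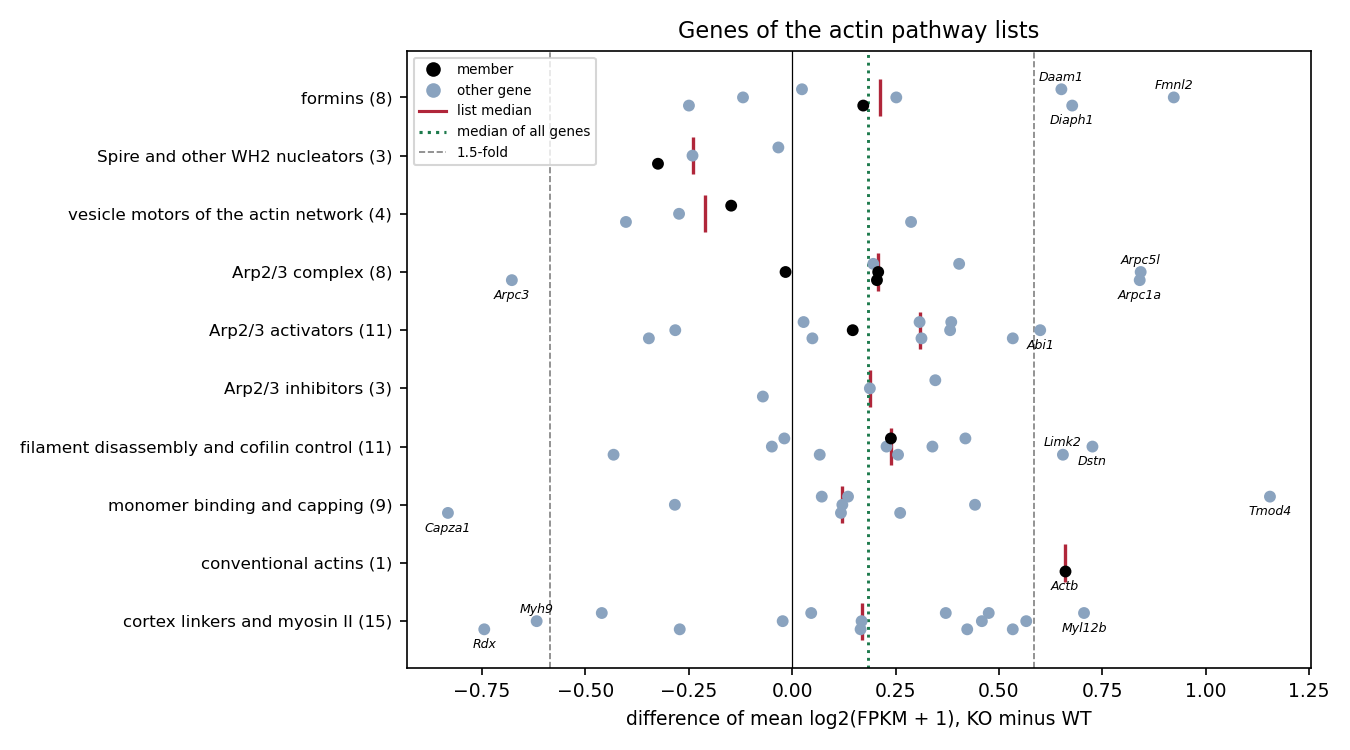
KO minus WT difference (mean log2 of FPKM + 1) of each gene above the filter in 10 of the 11 actin pathway lists (number of such genes in brackets); black dots are the 9 of the 10 chosen genes that passed the filter, red bars list medians, the dotted line the median of all genes (0.18) and dashed lines 1.5-fold. Names are given for genes over 1.5-fold apart, of which Tmod4 (1.16), which passed the filter through 3 KO oocytes alone, is highest and Capza1 (-0.83) lowest.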

How the data were processed

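RNA of 7 single oocytes was amplified with an ultra-low-input kit with ERCC spike-ins and sequenced on 2 lanes, per the labels' protocols. The deposited table holds FPKM computed by the authors, 1 column per oocyte, not logged. The submitters' processing notes name edgeR 3.1.10, HTSeq, Bowtie2, TopHat, Bowtie 0.12.8, TopHat2 2.0.2 and the mm9 build, without roles. Spike-ins were not used here, so levels are relative within an oocyte.

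Symbols came from a GRCm38 annotation, which named 87.4% of identifiers, and no coordinates are given. For each of the 18300 genes not at 0 throughout, whole reads were recovered (tolerance 0.01) as the smallest counts that give whole gene lengths. Implied lengths were 0.404 to 2.24 times the reference exon length for the 10 genes. This touches levels between genes, the filter and, through the pseudocount, the differences of low genes. It leaves ratios between oocytes of the same gene unchanged. The difference, the call and the recovery were checked on simulated data.

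Differences use a pseudocount of 1. Alternatives were pseudocounts of 0.1 and 5, no filter, a filter at 10 FPKM, median-ratio scaling, quantile normalization and leaving out each oocyte. No filter and the filter at 10 FPKM change which genes are counted, not the difference of a gene. The 10 genes and the lists were chosen with earlier results of these data known. Of the 11 lists, 1 is not reported here by itself and enters only the counts over all lists. The naming rule took the 10 genes, from each list the 2 other genes above the filter with the largest absolute difference, and for Fmn2 and Actb the 3 nearest profiles. Fhod3, Daam1, Diaph3, Actg1, Actg2, Acta1, Acta2, Actc1, Arpc3, Arpc4, Brk1, Wasl and Myh9 were named after their values were seen. Analyses used Python 3.11.15, pandas 2.3.3 and scipy 1.17.1.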

Additional observations from a re-analysis of the deposited data

Results flagged for a closer look

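In a group of 4 oocytes a value is listed here when its gap to the nearest other exceeds 0.829 of the group's range, which chance gives in about 1 of 20 groups. Of 36 genes examined in KO oocytes, 3 had such a value. Spire2 was at 0.415 FPKM in KO2 and at 0 in the other KO oocytes. Cobll1 was at 23.0 FPKM in KO1, and the others lay between 16.7 and 17.5. Limk2 was at 4.27 FPKM in KO3, and the others lay between 3.14 and 3.18.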

How the results depend on the processing

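No gene among the 36 examined singly that was over 1.5-fold apart changed direction in any alternative in which it passed the filter (9 to 13 of them), and 2 of those 15, Arpc5l and Capza1, stayed over 1.5-fold in every one. Of 429 recomputed differences, 399 moved by less than the spread between oocytes. These include the values with no filter and with the filter at 10 FPKM, which cannot differ from the deposited ones. Under median-ratio scaling the 10 genes had 0 over 1.5-fold higher (1 as deposited), 0 without overlap (1 as deposited) and a median of -0.0365. With quantile normalization 0 were without overlap. Leaving out 1 oocyte gave 0 (without WT2 or KO3) to 1 over 1.5-fold higher and 1 to 2 without overlap. As deposited, 18.9% of all genes above the filter were without overlap in the higher direction and 8.94% in the lower. These shares were not computed for the alternatives, and fewer oocytes make a lack of overlap easier. The pathway genes over 1.5-fold higher (15 as deposited) numbered 25 with a pseudocount of 0.1, 3 with 5, 6 with a filter at 10 FPKM, 6 with median-ratio scaling and 7 with quantile normalization, and leaving out 1 oocyte gave 9 (without WT2) to 21 (without WT1). The count over all genes moved too, from 1814 of 8033 as deposited to 2471 with a pseudocount of 0.1 and 631 with 5. It was 1255 with median-ratio scaling and 1154 with quantile normalization. With the filter at 10 FPKM it was 536 of 2967, without WT2 1569 of 7864 and without WT1 2259 of 7826. Those lower (4 as deposited) numbered 2 with a pseudocount of 5, 2 with the filter at 10 FPKM and 8 with median-ratio scaling. Over all genes, 636 were lower as deposited, 285 with a pseudocount of 5, 288 with the filter at 10 FPKM and 1044 with median-ratio scaling. Causes were not tested beyond the smaller number of genes a stricter filter leaves. No paired analysis was possible because the labels tie no oocytes to an animal or day, each genotype counts as 1 sample and the values come from no test, although numbers 1, 2 and 4 occur in both genotypes. Among the 10 genes, only Spire2 rested on few reads, 0 to 23 per oocyte. Whether depth accounts for its zeros was not tested.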
